A study of Drosophila melanogaster with 6 samples.

Results

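ZIP proteins, the SLC39 family, move zinc and in some cases other metals into the cytosol, from outside the cell or out of an organelle, while the ZnT proteins of the SLC30 family move zinc the other way. The 9 Drosophila melanogaster genes described here were Zip42C.1, Zip42C.2, Zip48C, Zip71B, Zip88E, Zip89B, Zip99C, foi and Catsup, taken by their FlyBase symbols from the 17807 genes counted in each library. The family was selected on the measured counts of Zip89B, which stood under 1 CPM (reads counted for it in every 1000000, after scaling by edgeR's TMM factors) in control testes and far above it after both knockdowns, so the values of Zip89B against control are given as a description with no test. The other 8 genes were listed by family and not by their values. In flies, Zip42C.1, Zip42C.2 and Zip89B are known for uptake of dietary zinc in the midgut, Zip71B for zinc excretion by the Malpighian tubules, Zip99C for loading iron into the secretory pathway, foi (fear of intimacy) for gonad and tracheal morphogenesis, and Catsup (Catecholamines up) for restraint of catecholamine synthesis and for zinc release from the secretory pathway.

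Polyadenylated RNA came from whole testes, 150 pairs per library, in 3 genotypes of 2 libraries each. The control carried bamGal4 alone, the Pcf11 knockdown carried bamGal4 with the hairpin line VDRC 103710, and the cbc knockdown carried bamGal4 with the hairpin line BL 77426. The driver is known to act in late spermatogonia and early spermatocytes, whole testes also hold cells without it, and each knockdown rests on 1 hairpin line. Crosses stood 3 days at 25 °C and the progeny then grew at 29 °C; the age at dissection was not given in the sources used here. Both targeted genes, Pcf11 and cbc (crowded by cid), encode parts of cleavage factor II. This complex takes part in cutting the 3' end of nascent transcripts and helps to end transcription. Per-gene counts were analysed for 5 libraries, 73600622 to 79053532 sense-strand counts in the controls and in Pcf11 library 2, against 18954932 and 20510200 in the cbc libraries. Pcf11 library 1 was analysed through its splice junction reads.

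Pcf11 itself stood at 49.9 and 54.7 CPM in the controls, 24.2 CPM in Pcf11 library 2, and 102 and 97.8 CPM in the cbc libraries. cbc stood at 52.5 and 56.9 CPM in the controls, 63.8 CPM in Pcf11 library 2, and 4.04 and 3.20 CPM in the cbc libraries. Each targeted gene was thus lowest in its own knockdown. Testis markers were present in every library. The 4 spermatocyte markers, nearly all of whose sum is Mst87F, summed to 2936 to 3214 CPM in the controls, 2542 CPM in Pcf11 library 2 and 857 to 926 CPM in the cbc libraries. Of these 4, 3 fell with cbc knockdown, the exception being can (34.4 and 34.6 CPM in the controls, 38.4 and 41.1 CPM in the cbc libraries), and 3 fell with Pcf11 knockdown, the exception being Mst87F (adjusted p = 0.052). In such bulk RNA, fewer cells of a type and less RNA per cell cannot be told apart. Among the 5 libraries with counts, both cbc libraries differed from the other 3 in depth and in the naming style of their titles, so a batch and the cbc knockdown cannot be told apart in the counts; Pcf11 library 1 is titled in the style of the cbc libraries but gives no counts here.

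In control testes the 9 genes spanned the whole range from abundant to near absent. Per kilobase of exon, Zip99C led at 189 ± 8.71 CPM per kb (SD, n = 2), followed by Catsup at 34.5 ± 1.34 and foi at 21.8 ± 0.0906. Zip71B followed at 9.02 ± 0.864 CPM per kb, Zip48C at 8.02 ± 0.405 and Zip88E at 3.70 ± 0.333. Zip89B stood at 0.383 ± 0.0146 CPM per kb, Zip42C.1 at 0.0372 ± 0.0222, and Zip42C.2 had no read in either control. The libraries of neighbouring genes in this order did not overlap, although Zip71B and Zip48C came close, with 8.41 CPM per kb in the lower library of Zip71B and 8.30 in the higher library of Zip48C.

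Zip89B, which was selected for its rise, changed its place in this order more than any other of the 9, so this is a description and no result about the family. It ranked 7 in the controls, 3 at 16.5 CPM per kb in Pcf11 library 2, and 2 after cbc knockdown at 25.8 ± 0.827 CPM per kb. Its share of the summed CPM per kb of the 9 genes was 0.137% and 0.151% in the controls, 4.30% in Pcf11 library 2, against 12.6% and 13.2% in the cbc libraries. After cbc knockdown it thus stood behind Zip99C at 128 ± 1.04 CPM per kb and ahead of Catsup at 20.8 ± 0.329. Zip48C at 10.3 ± 0.0928 CPM per kb and foi at 10.1 ± 0.122 were next and differed from each other by less than their SDs together, although their libraries did not overlap. The summed level of the 9 genes was 273 and 261 CPM per kb in the controls, 384 in Pcf11 library 2, against 201 and 199.7 in the cbc libraries, and Zip99C held 63.6% to 71.7% of it in every library.

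Zip89B (FBgn0038412) lies on the plus strand of chromosome arm 3R, at 16305758 to 16308700 of BDGP6, and has 1 annotated transcript with 1 intron and a protein of 495 residues. It had 54 and 58 counts in the controls, 2092 in Pcf11 library 2, and 1116 and 1243 in the shallower cbc libraries. In scaled units these were 0.749 and 0.791 CPM in the controls, 33.2 CPM in Pcf11 library 2, and 50.6 and 53.0 CPM in the cbc libraries. All 3 knockdown libraries stood far above both controls. The cbc mean was 67.3-fold and the Pcf11 value 43.1-fold the control mean, log2 fold changes of 6.07 ± 0.13 and 5.42 ± 0.13 (SE of the edgeR fit), which are descriptions because they chose the gene. On the strand opposite to Zip89B there were 2, 0, 3, 0 and 0 counts in the same order, so the reads were on the annotated strand. Among the 9 genes, those under 1 CPM in the controls were Zip89B, Zip42C.1 and Zip42C.2, and the lowest above that level was Zip88E at 5.69 CPM.

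**Figure D1:**
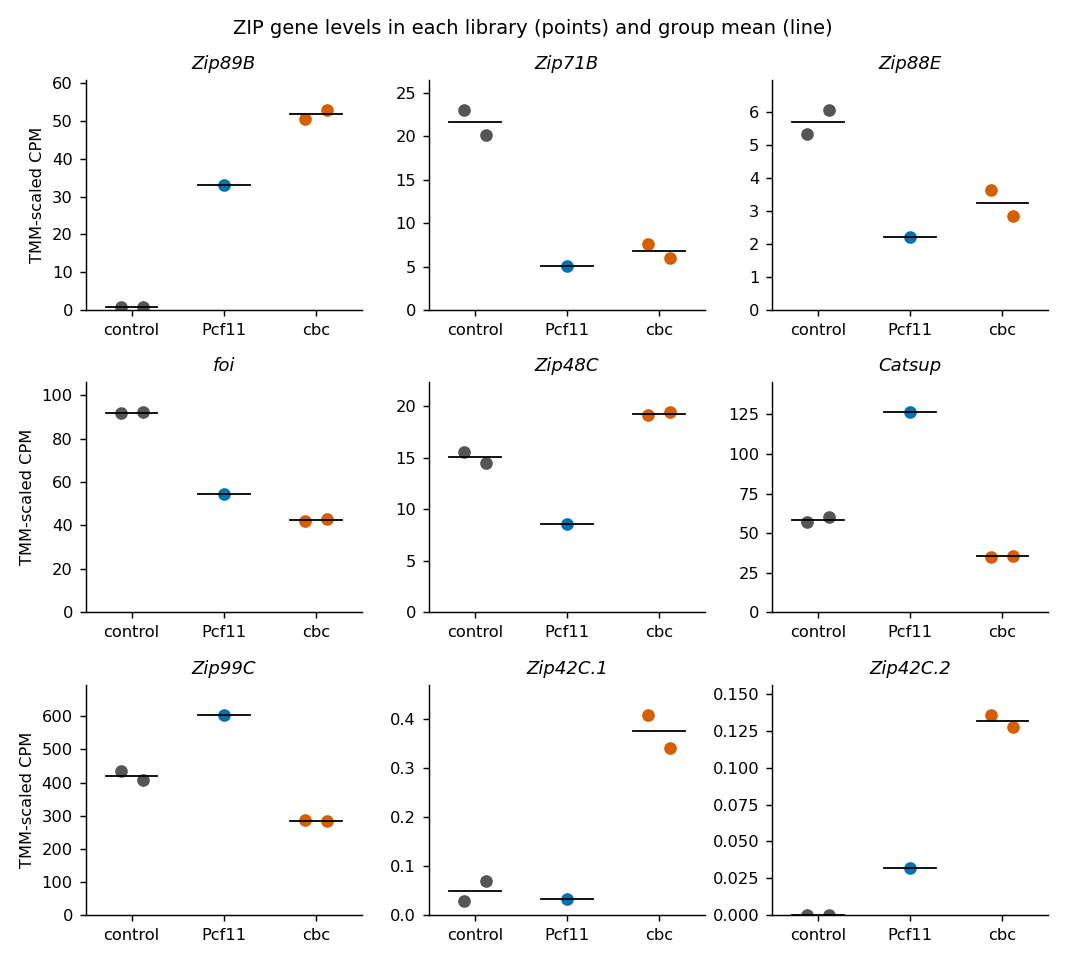
TMM-scaled CPM (linear axes from 0, each panel with its own scale) of the 9 ZIP genes in the 5 libraries with per-gene counts; points are libraries and lines group means, with 1 Pcf11 library. Zip89B goes from 0.770 CPM in the controls to 33.2 CPM in Pcf11 library 2 and 51.8 CPM in the cbc libraries, while Zip71B, Zip88E and foi are lower in both knockdowns.

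The knockdowns themselves differed in Zip89B. With cbc knockdown it was higher than with Pcf11 knockdown by 0.64 ± 0.11 on the log2 scale (SE of the edgeR fit), a comparison that does not use the controls. The choice of the gene used its level in both knockdowns, so this difference too is a description with no test. With library totals in place of TMM, which moved the median of all genes by 0.53 in this comparison, the difference was 1.17. Both cbc libraries were above the Pcf11 library. Over all 13960 genes tested, 71.9% passed the threshold of 0.05 between the knockdowns, so a difference there is common.

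The gene next to Zip89B did not share its pattern. The nearest upstream gene on the same strand was gish (gilgamesh), a casein kinase I, whose annotated end lies 989 bases before the start of Zip89B. gish stood at 728 and 612 CPM in the controls, 710 CPM in Pcf11 library 2, and 470 and 495 CPM in the cbc libraries. It fell with cbc knockdown by 0.47 ± 0.09 (log2, adjusted p = 0.0007), and with Pcf11 knockdown its value was 0.08 ± 0.11 (adjusted p = 0.53), which became -0.06 without control library 2. Downstream on the opposite strand, Sulf1, an extracellular sulfatase of heparan sulfate that lies 1841 bases beyond, stood at 66.4 and 66.3 CPM in the controls, 29.6 CPM in Pcf11 library 2, and 39.9 and 37.8 CPM in the cbc libraries. Sulf1 was thus lower in every knockdown library (log2 fold change -0.77 ± 0.08 for cbc, adjusted p = 5.1e-06, and -1.16 ± 0.10 for Pcf11, adjusted p = 1.6e-06).

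Spliced reads in Pcf11 library 1 joined gish to Zip89B. This library had 10381354 uniquely mapped junction reads, of which 70 crossed the annotated intron of Zip89B between 16307399 and 16308330. Another 8 reads, on 2 junctions of 3 and 5 reads, ran from annotated ends of gish exons to the start of exon 2 of Zip89B, which is 10.3% of the 78 reads that entered exon 2 (exact 95% interval 4.53% to 19.2%, counting error alone). A further 81 reads, on 5 junctions of 2 to 44 reads, ran from gish exon ends to a shared acceptor just after 16305212, between the genes, 445 bases past the end of gish and 545 bases before the start of Zip89B. From the last splice donor of gish, 49 of 326 reads skipped the last gish exon to reach these places, 15.0% (11.3% to 19.4%).

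**Figure D2:**
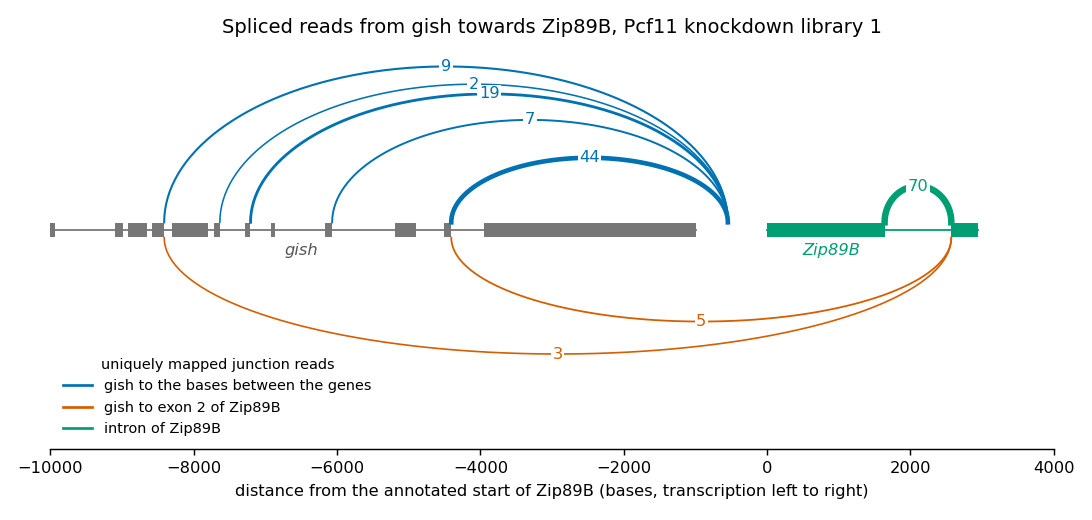
Uniquely mapped junction reads in Pcf11 knockdown library 1 over the end of gish and over Zip89B; the x axis is the distance in bases from the annotated start of Zip89B, boxes are merged exons, arcs are junctions labelled with their reads, and arc height has no meaning. Arcs above the genes from gish end at a shared acceptor before Zip89B (81 reads), those below at exon 2 of Zip89B (8 reads), and 70 reads cross the intron of Zip89B.

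Reads joining neighbours were rare in that library at large. Of 3568 protein-coding genes with a protein-coding neighbour upstream on the same strand within 1000 bases, 320 (8.97%) had at least 1 read from an exon end of that neighbour to an exon start of their own, and 79 (2.21%) had at least 8, as Zip89B did. These pairs were not matched on the level of the upstream gene, which for gish was 710 CPM in Pcf11 library 2. Whether Zip89B stands out among genes with so abundant a neighbour was not tested. The other ZIP genes with such a neighbour, Catsup, Zip42C.1 and Zip71B, had 0 reads of this kind, but their neighbours were far less abundant than gish in Pcf11 library 2 except for mib2 beside Catsup at 787 CPM. The neighbour of Zip71B, mnd, stood at 2.03 CPM there, and Zip42C.1 and its neighbour Zip42C.2 had 2 counts each, so their 0 carries little information. Junction reads of the control and cbc libraries are not used here, so whether the joined reads differ between genotypes was not tested. These junctions were looked for after the level of Zip89B was known.

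Pcf11 library 1 also gives a second view of the level of Zip89B. Its 70 intron reads stood beside 306 over the annotated intron of Catsup, which also has 1 intron, a ratio of 0.229 (exact 95% interval 0.174 to 0.297). The ratio of Zip89B to Catsup counts was 0.0132 and 0.0131 in the controls, 0.263 in Pcf11 library 2, against 1.45 and 1.49 in the cbc libraries. The intron ratio of Pcf11 library 1 was thus near the count ratio of Pcf11 library 2, although intron reads and gene counts are different measures and were set side by side without a test. Catsup itself rose in Pcf11 library 2, as given below.

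Over the 5 libraries, the genes whose profile of log2(CPM + 0.5) around its own mean lay closest to that of Zip89B, out of 13959, were CG10587, Sox21b, lncRNA:CR42836, Phlpp and lncRNA:CR45613, at Euclidean distances of 0.806 to 1.03. Sox21b, a Sox-family transcription factor, stood at 0.591 CPM in the controls, 17.3 CPM in Pcf11 library 2 and 24.9 CPM on average in the cbc libraries. Phlpp, a protein phosphatase, stood at 2.19, 31.3 and 67.5 CPM in the same order. No ZIP gene was near: the closest, Zip48C, ranked 6567. This likeness is a description over 5 libraries of 3 genotypes.

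The other ZIP genes that passed the filter on low counts, at least 10 counts in at least 2 libraries, were 6 of the remaining 8. With cbc knockdown 1 of the 6 rose and 5 fell (edgeR, adjusted p under 0.05), and with Pcf11 knockdown 2 rose and 4 fell. Of all 13960 genes, 74.1% passed in the cbc comparison (36.3% higher, 37.8% lower) and 69.0% in the Pcf11 comparison (32.6% higher, 36.4% lower), so that all 6 passed is not a result about the family. The median log2 fold change of the 6 was -0.77 with cbc knockdown, where that of all genes was -0.02, and -0.78 with Pcf11 knockdown, where that of all genes was -0.06. Both comparisons use the same controls. The direction against control of each of these 6 genes held under each of the 11 other settings, with sizes that move as given below.

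**Figure D3:**
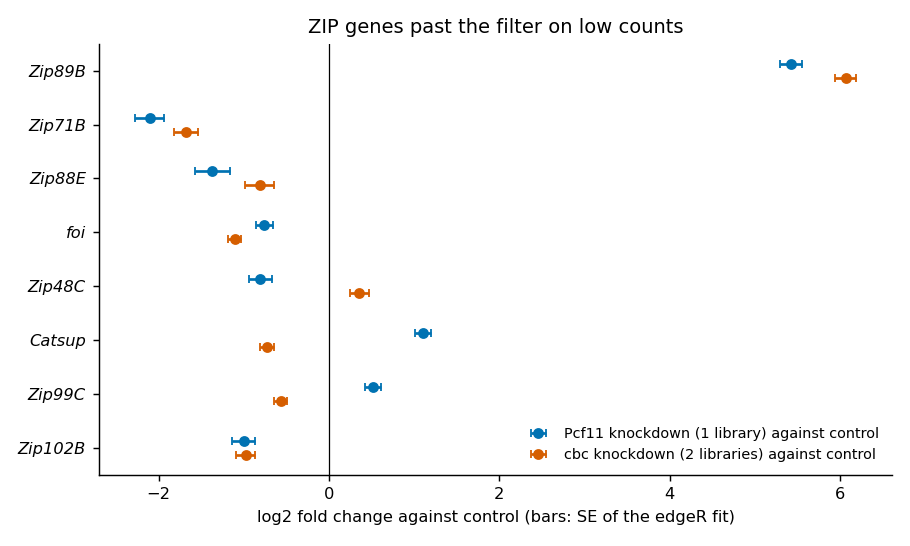
Log2 fold change against control of the ZIP genes past the filter on low counts, with Zip102B, a ZIP gene outside the 9; bars are the SE of the edgeR fit. Zip71B, Zip88E, foi and Zip102B lie below 0 in both knockdowns. Catsup and Zip99C are both below 0 with cbc knockdown and above 0 with Pcf11 knockdown, and Zip48C is above 0 with cbc knockdown and below 0 with Pcf11 knockdown.

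Zip71B, Zip88E and foi fell in both knockdowns. Zip71B (FBgn0036461, 3L, 14992289 to 14997983, plus strand) stood at 23.0 and 20.1 CPM in the controls, 5.01 CPM in Pcf11 library 2, and 7.58 and 5.97 CPM in the cbc libraries. Every knockdown library was far below both controls. Its log2 fold change was -1.67 ± 0.14 with cbc knockdown (adjusted p = 6.6e-07) and -2.10 ± 0.17 with Pcf11 knockdown (adjusted p = 9.7e-07). Uro, the urate oxidase of the Malpighian tubules where Zip71B is best known, stood at 26.4 and 24.1 CPM in the controls, 2.33 CPM in Pcf11 library 2, and 1.54 and 0.639 CPM in the cbc libraries. The other 5 tubule markers passed in the opposite direction in both knockdowns. The summed tubule list was 30.6 to 34.2 CPM in the controls, 18.0 CPM in Pcf11 library 2 and 74.0 to 78.3 CPM in the cbc libraries. Most of the cbc sum was Irk2, at 66.1 and 69.1 CPM. Of the lower ones, salt had 78 and 3 counts in the cbc libraries and NaPi-T had 95 and 36. The part of tubule cells in the values of Zip71B was not tested.

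foi (FBgn0024236, 3L, 8525244 to 8534503, plus strand) stood at 91.6 and 92.1 CPM in the controls, 54.3 CPM in Pcf11 library 2, and 42.2 and 43.0 CPM in the cbc libraries. The 3 groups did not overlap. It fell by 1.11 ± 0.08 (log2) with cbc knockdown (adjusted p = 1.8e-07) and by 0.76 ± 0.10 with Pcf11 knockdown (adjusted p = 2.7e-05). Zip88E (FBgn0038312, 3R, 15268662 to 15270532, plus strand), at a lower level, stood at 5.33 and 6.05 CPM in the controls, 2.21 CPM in Pcf11 library 2, and 3.63 and 2.86 CPM in the cbc libraries. Its libraries were again all below the controls, with log2 fold changes of -0.81 ± 0.17 for cbc (adjusted p = 0.0012) and -1.37 ± 0.21 for Pcf11 (adjusted p = 0.00011).

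Markers of somatic cells of the testis were lower in the same libraries as these 3 genes. The summed cyst and hub cell markers stood at 89.7 to 93.5 CPM in the controls, 26.1 CPM in Pcf11 library 2 and 21.3 to 23.5 CPM in the cbc libraries, and 3 of 3 fell with cbc knockdown and 2 of 3 with Pcf11 knockdown. The summed muscle sheath markers stood at 368 to 382 CPM in the controls, 114 CPM in Pcf11 library 2 and 145 to 206 CPM in the cbc libraries, and 3 of 3 fell in both. The germ line markers vas and bam were also lower in Pcf11 library 2, and neither passed with cbc knockdown. vas stood at 19.2 and 20.7 CPM in the controls, 5.58 CPM in Pcf11 library 2, and 22.8 and 15.6 CPM in the cbc libraries. bam stood at 6.72 and 8.60 CPM in the controls, 3.84 CPM in Pcf11 library 2, and 6.67 and 7.16 CPM in the cbc libraries. The part of any of these cells in the values of Zip71B, Zip88E and foi was not tested. Zip89B is known from the midgut. The midgut trypsin alphaTry had 0 counts in the control and cbc libraries and 2 in Pcf11 library 2. betaTry had 0 counts in all 5, and Jon99Ciii had 1 count, in cbc library 2. Jon65Aiii had 2 or 3 counts in each library. Mal-A1 had 12 and 22 counts in the controls, 24 with Pcf11 knockdown, and only 2 and 3 with cbc knockdown. Its log2 fold change was -1.07 ± 0.70 with cbc and 0.70 ± 0.51 with Pcf11 knockdown. The whole midgut list of 6 summed to 432 to 551 CPM in the controls and 120.3 CPM in Pcf11 library 2, against 273 to 290 CPM with cbc knockdown. Nearly all of this sum was the amylase Amy-p, which was lower than in the controls in both knockdowns. The fat body markers, 4 of 4 higher in both knockdowns as Zip89B was, summed to 4.69 to 5.20 CPM in the controls, 22.9 CPM in Pcf11 library 2 and 32.9 to 41.9 CPM in the cbc libraries. Of 6 Malpighian tubule markers, 5 were also higher in both. Of 4 accessory gland markers, 3 were higher with cbc and 0 with Pcf11 knockdown, and their sum was 56.3 and 164 CPM in the controls. Of 2 haemocyte markers, 1 rose and 1 fell in each knockdown. The part of these cells in the level of Zip89B was not tested.

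Catsup and Zip99C, both of the secretory pathway, each rose with Pcf11 knockdown and fell with cbc knockdown. Catsup (FBgn0002022, 2L, 19041862 to 19043614, plus strand) stood at 57.0 and 60.2 CPM in the controls, 126 CPM in Pcf11 library 2, and 34.9 and 35.7 CPM in the cbc libraries. The Pcf11 library was thus above and both cbc libraries below the controls. Its log2 fold change was -0.73 ± 0.08 with cbc knockdown (adjusted p = 7.9e-06) and 1.11 ± 0.09 with Pcf11 knockdown (adjusted p = 1e-06), and the knockdowns differed by -1.84 ± 0.10 (cbc minus Pcf11, adjusted p = 3e-08). With library totals the cbc value was -0.48, still past the threshold. mib2, an E3 ubiquitin ligase gene that ends 320 bases before Catsup on the same strand, rose in both knockdowns, by 0.34 ± 0.09 with cbc (adjusted p = 0.0048) and by 0.75 ± 0.11 with Pcf11 (adjusted p = 5.8e-05).

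Zip99C (FBgn0039714, 3R, 29863701 to 29868895, minus strand) was the most abundant of the 9 in every library. It stood at 435 and 407 CPM in the controls, 605 CPM in Pcf11 library 2, and 286 and 283 CPM in the cbc libraries. These groups did not overlap either. The log2 fold change was -0.57 ± 0.08 with cbc knockdown (adjusted p = 4.1e-05) and 0.52 ± 0.09 with Pcf11 knockdown (adjusted p = 0.00035), and the difference between the knockdowns was -1.09 ± 0.09 (adjusted p = 1.1e-06). With library totals in place of TMM, which moved the median of all genes by 0.25 with cbc and by -0.28 with Pcf11 knockdown, the values of Zip99C became -0.32 and 0.24, both still past the threshold. The difference between the knockdowns became -0.56. The 3 spermatid markers, most of whose sum is dj and Mst98Ca, summed to 2333 to 2916 CPM in the controls, 3819 CPM in Pcf11 library 2 and 1585 to 1687 CPM in the cbc libraries. With cbc knockdown dj and Mst98Ca fell and fzo rose (1.19 ± 0.11, adjusted p = 2e-06), and with Pcf11 knockdown Mst98Ca and fzo rose and dj had a log2 fold change of 0.30 (adjusted p = 0.15). The part of these cells in the values of Zip99C and Catsup was not tested.

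In the junction reads of Pcf11 library 1, few reads crossed a first intron of Zip99C. Its gene models, 9 transcripts in all, hold 8 first introns that lead into the same exon, and 75 reads spliced into that exon, 52 over introns of the gene models and 23 over junctions outside them, against 1805 over the next intron, so that the 75 were 4.16% of these. The other 4 introns had 1385 to 2620 reads. The annotation also holds a transcript that starts inside the gene without a first intron, and these introns were singled out after their reads were seen. For foi, 41 reads left a short and 73 a long form of the first exon, and 1 read left a start further downstream, while its other 4 introns had 93 to 113 reads each. Catsup had 311 junction reads, Zip71B 78 and Zip88E 31, Zip42C.1 and Zip42C.2 had 0, and Zip48C has no intron.

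Zip48C differed in another way, being higher with cbc knockdown and lower with Pcf11 knockdown. The gene (FBgn0033665, 2R, 11899517 to 11901394, plus strand) stood at 15.6 and 14.5 CPM in the controls, 8.63 CPM in Pcf11 library 2, and 19.2 and 19.4 CPM in the cbc libraries. The groups did not overlap, but the cbc libraries stood close above the controls. With cbc knockdown its log2 fold change was 0.36 ± 0.11 (adjusted p = 0.0094), which did not pass without control library 2 (0.30, adjusted p = 0.074) and was 0.61 with library totals. With Pcf11 knockdown it was -0.80 ± 0.13 (adjusted p = 0.00021), and the knockdowns differed by 1.16 ± 0.14 (adjusted p = 1.6e-05). Zip48C lies wholly inside MCPH1 on the opposite strand, a gene at 592 CPM in the controls, 1049 CPM in Pcf11 library 2 and 562 CPM in the cbc libraries. Wrong-strand reads from the part of MCPH1 over Zip48C would count for Zip48C, and their part in its values was not tested. Over Zip48C the strand of MCPH1 had 63 counts in the controls, 8 in Pcf11 library 2 and 7 in the cbc libraries. The strand of Zip48C had 2189, 544 and 879 in the same order. MCPH1 rose with Pcf11 knockdown by 0.83 ± 0.09 (adjusted p = 1.1e-05), where Zip48C fell.

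The other differences between the knockdowns were smaller. foi was lower with cbc than with Pcf11 knockdown by -0.35 ± 0.10 (log2, adjusted p = 0.0063), but with library totals the value was 0.18 (adjusted p = 0.17). Zip71B was higher by 0.43 ± 0.18 (adjusted p = 0.048) and Zip88E by 0.55 ± 0.22 (adjusted p = 0.042) with cbc than with Pcf11 knockdown. Neither call held without cbc library 1 (0.26, adjusted p = 0.21, and 0.38, adjusted p = 0.16), nor with all libraries kept under DESeq2, RLE scaling, no filter, only the libraries compared or the replicate block, where adjusted p was 0.094 to 0.3 for Zip71B and 0.071 to 0.31 for Zip88E. With library totals both passed, at 0.96 and 1.09. In all, 3 of the 6 genes were higher and 3 lower in this comparison, where 42.2% of all genes were higher and 29.7% lower.

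Zip42C.1 and Zip42C.2, adjacent genes on the minus strand of 2R (6716342 to 6717707 and 6718196 to 6719533), were close to the limit of detection and did not pass the filter. Zip42C.1 had 2 and 5 counts in the controls, 2 in Pcf11 library 2, against 9 and 8 in the cbc libraries, which were the shallower ones. The cbc level was 7.76-fold that of the controls (95% counting interval 3.06 to 22.1), and the Pcf11 level 0.659-fold (0.0668 to 3.46). Zip42C.1 also had more reads on the opposite strand than on its own, 30 against 7 in the controls, 22 against 2 in Pcf11 library 2 and 57 against 17 in the cbc libraries. Zip42C.2 had 0 and 0 counts in the controls, 2 in Pcf11 library 2, against 3 and 3 in the cbc libraries. A floor of 3 counts over both controls is 0.0206 CPM. The cbc level of 0.132 CPM (95% counting interval 0.0484 to 0.287) was 6.39-fold that floor, with the counting error of the cbc level left out of this ratio. Neither gene reached 0.5 CPM in any library, unlike Zip89B, the other ZIP gene known from dietary zinc uptake.

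Zip102B (chromosome 4, 310930 to 314087, minus strand), a further ZIP gene outside the 9, stood at 42.9 and 35.5 CPM in the controls, 19.6 CPM in Pcf11 library 2, and 20.01 and 19.8 CPM in the cbc libraries. All knockdown libraries were below both controls and close to each other. It fell in both knockdowns, to 0.508-fold the control mean with cbc (adjusted p = 7.6e-06) and to 0.4998-fold with Pcf11 knockdown (adjusted p = 3.8e-05).

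Among the genes that work against or beside ZIP proteins, the zinc exporters of the ZnT family had small changes with cbc knockdown except for ZnT33D. Of 7 ZnT genes measured out of 8 listed, 1 rose and 4 fell with cbc knockdown (median log2 fold change -0.29), and 2 rose and 4 fell with Pcf11 knockdown (median -0.37), where 74.1% and 69.0% of all genes passed and the medians of all genes were -0.02 and -0.06. These counts depended on the scaling: with library totals 2 rose and 1 fell with cbc knockdown, and 0 rose and 5 fell with Pcf11 knockdown. The rise with cbc knockdown, that of ZnT35C (0.24 ± 0.08, adjusted p = 0.015), did not pass with no filter (adjusted p = 0.075) or without control library 1 (adjusted p = 0.13). ZnT33D stood at 70.0 and 51.2 CPM in the controls, 82.6 CPM in Pcf11 library 2, and 25.0 and 27.5 CPM in the cbc libraries. It fell by 1.21 ± 0.13 with cbc knockdown (adjusted p = 6.9e-06), and with Pcf11 knockdown its value of 0.45 ± 0.15 (adjusted p = 0.02) was 0.22 (adjusted p = 0.15) without control library 2 and 0.68 without control library 1. ZnT41F fell by 1.41 ± 0.14 with Pcf11 knockdown (adjusted p = 3.5e-06). ZnT63C, a basolateral exporter in the gut, stood at 127 and 128 CPM in the controls and 63.6 CPM in Pcf11 library 2 (log2 fold change -1.01 ± 0.10, adjusted p = 2.9e-06).

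Metallothioneins are small proteins that bind zinc, copper and other metals. Of the 6 metallothionein genes and their activator MTF-1, 2 rose and 5 fell with cbc knockdown and 1 rose and 5 fell with Pcf11 knockdown, against 74.1% and 69.0% of all genes called. The median log2 fold change was -2.01 in both, where those of all genes were -0.02 and -0.06; for cbc the median was the same with MtnE at its limit. MtnA, the most abundant, stood at 2389 and 2331 CPM in the controls, 500.02 CPM in Pcf11 library 2, and 649 and 512 CPM in the cbc libraries. Every knockdown library was far below the controls (-2.02 ± 0.11 for cbc, adjusted p = 1.7e-08, and -2.24 ± 0.14 for Pcf11, adjusted p = 1.8e-07). MtnD had 912 counts in the controls against 5 in the cbc libraries and 10 in Pcf11 library 2. MtnE had 264 counts in the controls, 0 in the cbc libraries, where it was at least 27.5-fold lower against a floor of 3 counts over the group, and 1 in Pcf11 library 2, a 114-fold lower level (20.4 to 4537). MtnB went the other way with cbc knockdown, from 0.375 and 0.409 CPM in the controls to 1.72 and 1.66 CPM (2.10 ± 0.30, adjusted p = 5.5e-05).

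**Figure D4:**
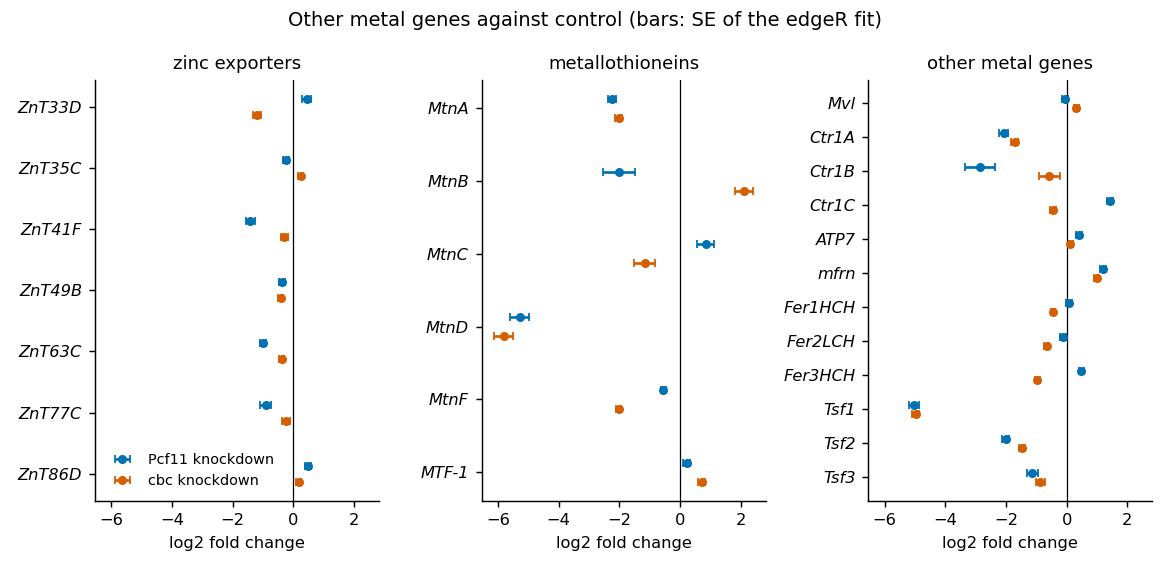
Log2 fold change against control of the zinc exporters, the metallothioneins with MTF-1, and genes of iron, copper and manganese handling; points are the edgeR estimates and bars their SE, and MtnE is left out since it had 0 counts in the cbc libraries. MtnA, MtnD, Tsf1, Tsf2 and Ctr1A lie below 0 in both knockdowns, and mfrn lies above 0 in both.

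Of the 12 genes of iron, copper and manganese, 2 rose and 8 fell with cbc knockdown (median -0.62), and 4 rose and 5 fell with Pcf11 knockdown (median -0.08). These shares are near the 74.1% and 69.0% of all genes, whose medians were -0.02 and -0.06, and with library totals the Pcf11 counts were 2 and 8. Tsf1, the secreted iron carrier transferrin, stood at 767 and 865 CPM in the controls, 25.1 CPM in Pcf11 library 2, and 28.5 and 23.5 CPM in the cbc libraries. It was the largest fall of this list in both comparisons (-4.97 ± 0.12 for cbc, adjusted p = 5.1e-11, and -5.02 ± 0.16 for Pcf11, adjusted p = 1.6e-09). Ctr1A, a plasma membrane copper importer, fell in both (-1.72 ± 0.12 for cbc, adjusted p = 1.2e-07, and -2.08 ± 0.15 for Pcf11, adjusted p = 3.3e-07). Ctr1B, a copper importer of the gut, had 119 counts in the controls and 7 in Pcf11 library 2 (-2.85 ± 0.48, adjusted p = 0.00025). Ctr1C, the copper importer of the male germ line, stood at 22.8 and 23.3 CPM in the controls, 62.1 CPM in Pcf11 library 2, and 17.9 and 16.2 CPM in the cbc libraries, the same order of groups as in Catsup and Zip99C. mfrn, the mitochondrial iron importer, rose in both, by 0.99 ± 0.08 with cbc (adjusted p = 3.2e-07) and by 1.20 ± 0.09 with Pcf11 (adjusted p = 4.6e-07).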

How the data were processed

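The authors deposited raw counts per gene, of which the sense-strand ones were used (the kit was directional, per the labels' protocols), and junction counts for Pcf11 library 1. Tools listed in the submitters' processing notes are deepTools, SAMtools, STAR and Trim Galore, with builds BDGP6 and dm6; versions, not given in the sources used here, are left out. By their layout the deposited counts come from STAR and cover uniquely mapped reads, so close gene copies can lose reads. Antisense counts made up 3.08% to 3.63% of stranded counts, and rows that name no gene (1.35% to 2.86% of unique reads without a feature and 4.45% to 4.88% ambiguous) stayed out of all totals. Gene symbols and positions were read from a BDGP6 annotation, which held 17710 of 17807 gene identifiers. Its introns, and not the annotated flag of the junction file, defined annotated junctions, since 43.2% of the flagged junctions were in its gene models.

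The 13960 genes that reached 10 counts in 2 or more of 5 libraries were fitted with the quasi-likelihood test of edgeR 4.0.16 in R 4.3.3, with TMM scaling and genotype as the only term, which left 2 residual and 9.33 prior degrees of freedom at a common dispersion of 0.00687. Tests were two-sided, with Benjamini-Hochberg adjustment over all genes within a comparison and 0.05 as the threshold. The lone Pcf11 library was assumed to vary like the others. CPM are counts per 1000000 of the TMM-scaled library total. A floor of 3 counts was 0.0379 to 0.158 CPM per library before TMM scaling; floors and 95% intervals cover counting error only. The test was checked on simulated counts in which 200 genes changed, equally up and down, at a dispersion of 0.007. That check does not cover data in which most genes are called, as here. Alternatives were RLE scaling, library totals, no filter, DESeq2 1.42.0, only the libraries compared, a replicate block, counts without regard to strand, and leaving out each control and each cbc library.

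Whether libraries of a group are separate cultures is not stated in the labels, and p-values then measure only the spread between these samples, possibly a technical one; chi-square over degrees of freedom was 56.0 between the control counts and 8.41 between the cbc counts, above sampling noise. The members and gene lists, and the rules for genes named, were chosen with earlier results of these data known. Named were the 9 ZIP genes, both targeted genes, at least the 3 genes of each metal list with the largest absolute log2 fold change past the test, the genes beside ZIP genes, and the 5 profiles most like Zip89B. Of listed genes, ZnT59D, nos and Acp70A matched no symbol.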

Additional observations from a re-analysis of the deposited data

Results flagged for a closer look

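The effect of the knockdowns differed between cbc and Pcf11 for 6 ZIP genes, by the edgeR test of cbc against Pcf11 knockdown, in which 71.9% of all genes passed. Zip89B, whose level in both knockdowns entered its choice, is listed beside them as a description. On the log2 scale, cbc minus Pcf11, the differences were 1.16 for Zip48C, 0.64 for Zip89B, 0.55 for Zip88E, 0.43 for Zip71B, -0.35 for foi, -1.09 for Zip99C and -1.84 for Catsup. Both cbc libraries stood on the same side of the Pcf11 library for each of the 7. The share of all genes for which this holds was not counted, so it is no result about these genes. The calls of Zip71B and Zip88E were each lost under 6 other settings, and foi was 0.18 (adjusted p = 0.17) with library totals.

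The splice junctions of Pcf11 library 1, which enter no comparison between genotypes, held 89 reads from gish into Zip89B or into the bases before it, which is a signal outside the main measurement. Of these, 8 reached exon 2 of Zip89B, and 2.21% of the 3568 neighbour pairs compared in that library had at least as many such reads. The pairs were not matched to gish on the level of the upstream gene.

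Reads on the strand opposite to a ZIP gene were above the control level in the cbc libraries for 3 genes, by counting intervals alone; libraries of a group differed by more than counting error, so this is no test of the genotypes. They stood at 1.25 CPM (0.862 and 1.62 by library) against 0.206 CPM in the controls (0.180 and 0.232) for Zip42C.1. For Zip99C they stood at 1.43 CPM (1.41 and 1.45) against 0.385 CPM (0.458 and 0.314), and for Catsup at 2.07 CPM (1.81 and 2.30) against 1.22 CPM (1.26 and 1.17). The antisense share of all stranded counts was also higher in the cbc libraries, 3.52% and 3.63% against 3.10% and 3.08% in the controls, and its part in these values was not tested.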

How the results depend on the processing

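Of 231 values of the ZIP genes under 11 other settings, 209 kept their direction and side of the threshold, or for Zip89B stayed within its replicate spread; 13 no longer passed, 1 reversed, and 8, all of Zip89B against control, moved beyond that spread, within 5.14 to 6.32. The reversed value was foi in cbc against Pcf11 knockdown, 0.18 with library totals. In the same comparison the number of ZIP genes that were higher, 3, was 1 under DESeq2, RLE scaling, no filter and only the libraries compared, and 1 to 3 on leaving out each control or cbc library. With the replicate block it was also 1; same-numbered control and cbc libraries deviated from their group means with a correlation of -0.035 over 13960 genes, so the numbers do not pair the libraries. In the cbc comparison with control the count of ZIP genes that were higher was 0 to 1 on leaving out each control or cbc library, 0 being without control library 2. With library totals, 2452 genes were lower in cbc against Pcf11 knockdown, where 4153 were by TMM; calls were 6374 higher and 3943 lower for cbc against control (5074 and 5270 by TMM), and 3280 and 6467 for Pcf11 (4555 and 5075). Among other genes with small changes, values that reversed were ZnT77C for cbc (0.015, library totals), and for Pcf11 gish (-0.20 with library totals, and from -0.058 without control library 2 to 0.199 without control library 1), MTF-1 (-0.069) and Fer1HCH (-0.21) with library totals, and Mvl (0.095) and Fer2LCH (0.035) with DESeq2 and with RLE scaling. Of 568 values of the metal lists, 526 were the same, 21 no longer passed, 14 newly passed and 7 reversed. The cause of these changes was not tested. Depth limits Zip42C.1 and Zip42C.2, and the Pcf11 values rest on 1 library.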
